A study of Mus musculus with 47 samples.

Results

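The comparison described here set the brains of female 3xTg mice fed a valine-restricted diet (ValR) against those of female 3xTg mice fed the amino acid-defined Control diet. It rests on 12 RNA-seq libraries, 6 ValR (library numbers 31 to 36) and 6 Control (library numbers 25 to 30), which were chosen by their sample titles as the female ValR and female Control columns of the female expected count table. The series labels 47 libraries, of which 37 were analysed here, 23 from females and 14 from males. The others were all male and had no column in the count tables used here. All of these mice were homozygous for the 3xTg alleles, which are transgenes for human mutant APP and human mutant tau under the neuronal Thy1 promoter together with a further knock-in allele, and no non-transgenic library was used. Diets began at 6 months of age and lasted 9 months. In addition to Control and ValR the females included 5 isoleucine-restricted (IleR) and 6 leucine-restricted (LeuR) mice. The study's methods describe diets equal in energy, each low in a single branched-chain amino acid (BCAA), and describe randomization by cage, so that libraries of 1 diet may come from cage mates, and p-values measure the spread between these libraries.

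Valine is a BCAA that animals must obtain from food. Its breakdown starts with transamination by BCAT1 or BCAT2 and decarboxylation by the branched-chain ketoacid dehydrogenase (BCKDH) complex, steps shared with leucine and isoleucine, and then follows a valine branch that ends in propionyl-CoA and succinyl-CoA. Cells sense a shortage of an amino acid in 2 main ways: the kinase GCN2 (Eif2ak4) detects uncharged transfer RNA and drives the integrated stress response through ATF4, and mTORC1 loses activity when the Rag GTPases and their regulators report low amino acids. In the brain of a mouse with amyloid and tau pathology, microglia and astrocytes also take up a well-described reactive state.

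The 12 libraries held between 12865421 and 20669236 expected counts, and the totals did not differ between the diets (Control mean 16189200 ± 2052910 SD, ValR mean 17200700 ± 2127420 SD, n = 6 each, two-sided exact permutation test, p = 0.442). Xist lay between 546 and 771 CPM in all 12 and 4 Y-linked genes had no count, which matches the female label. The labels call the tissue brain, while the extraction text names liver. Pan-neuronal markers were abundant in all 12 libraries, and 8 of 10 liver markers were too low to be tested, with at most 124 counts of Alb in any library and 225 over all 12. Expression is given as CPM, the counts of a gene scaled to a common library size after TMM normalisation, and a difference is a log2 fold change of ValR minus Control from edgeR's quasi-likelihood fit of the 23 female libraries.

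The libraries differed first in which brain regions they held. A score was formed as the mean log2 CPM of 15 cerebellar markers minus that of 15 forebrain markers. The score was above 0 in 4 libraries, Control 29 (1.18), Control 30 (4.73), ValR 31 (1.52) and ValR 36 (3.34), and below 0 in the other 8. Both diets thus held 2 libraries rich in cerebellar RNA. The score averaged -1.60 ± 3.93 in Control and -1.30 ± 3.03 in ValR (SD, n = 6 each), a difference of 0.30 (two-sided exact permutation test, p = 0.870). The fitted log2 fold changes of the 15 cerebellar markers pointed the other way, with 13 lower in ValR, a median of -0.36 and none with a p under 0.05. Because these are bulk libraries, more or fewer cells of a type and more or less RNA in each cell cannot be told apart.

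**Figure D1:**
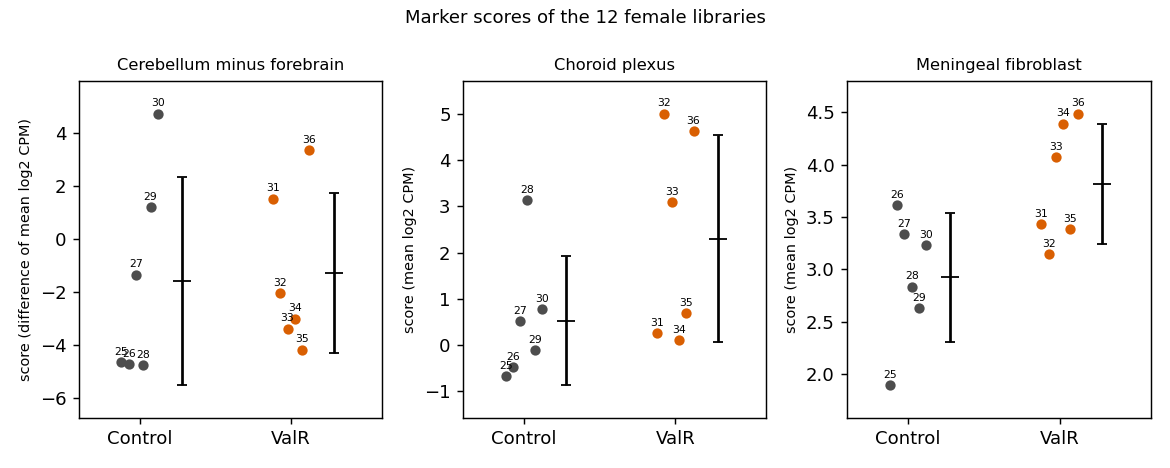
Marker scores of each female Control (grey) and ValR (orange) library, labelled by library number, for cerebellum minus forebrain (difference of mean log2 CPM), choroid plexus and meningeal fibroblast (mean log2 CPM). Bars give the mean and SD of 6 libraries. The cerebellum score spreads widely within both diets, choroid plexus markers are high in ValR 32, 33 and 36 and Control 28, and the meningeal score averages 2.92 in Control and 3.82 in ValR.

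No gene passed the test between the diets. Of 20344 genes tested, 0 (0%) had an adjusted p under 0.05 by edgeR (quasi-likelihood test, Benjamini-Hochberg adjusted), and the smallest adjusted p was 0.9496. limma voom, the test the study used, and DESeq2 also called 0 genes, with smallest adjusted p of 0.147 and 0.312. At an unadjusted p under 0.05 edgeR listed 777 genes, of which 579 were higher in ValR (2.85% of those tested) and 198 lower (0.973%). Voom listed 824 and DESeq2 842 at that level. The surplus of genes higher in ValR depended on the fit: with the meningeal fibroblast score as a covariate 559 were higher and 558 lower, with the choroid plexus score 382 and 244, and without Control 27 there were 959 and 363. The median log2 fold change over all genes was -0.01.

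The size of a difference was bounded most closely for genes of middle and high expression. The 95% interval of the log2 fold change lay inside 1.5-fold in either direction for 10533 genes (51.8%) and inside 2-fold for 14277 (70.2%). Precision followed the level of expression: among 8151 genes at 10 to 100 CPM, 82.9% were bounded within 1.5-fold, while among 5023 genes under 1 CPM only 0.638% were. For genes under 1 CPM the median half-width of the interval was 1.17 on the log2 scale, and only 16% of them were bounded within 2-fold.

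Among genes whose mean log2 CPM reached 1, those higher in ValR with the smallest p included adaptors, membrane proteins and secreted matrix proteins, and all are given as values, since none passed the adjusted test. Dab2 (chr15:6299788-6440712, GRCm38), which encodes a clathrin adaptor for receptor endocytosis, had 5.60, 7.91 and 13.7 CPM (lowest, median and highest) in Control and 9.82, 17.1 and 19.0 CPM in ValR. In 4 of 6 ValR libraries Dab2 exceeded every Control library. Its log2 fold change was 0.88 ± 0.20 (SE), with an unadjusted edgeR p of 0.000273 and an adjusted p of 1.00. Myof, which encodes the membrane fusion protein myoferlin, had a log2 fold change of 0.73 ± 0.17 and lay above all Control libraries in 5 of 6. Wfikkn2, a secreted inhibitor of GDF8 and GDF11, had 0.40, 1.86 and 2.37 CPM in Control and 2.02, 4.47 and 6.77 CPM in ValR, and its log2 fold change was 1.36 ± 0.36. Of the other genes in this group, Aebp1 and Prelp encode matrix proteins (0.95 and 0.46), Ajuba a LIM scaffold (0.78), Dpyd the first enzyme of pyrimidine breakdown (0.57), and Uaca was at 0.51.

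Among genes whose mean log2 CPM reached 1, the 10 lower in ValR with the smallest p differed by between -0.46 and -0.15 on the log2 scale. Dok3, an adaptor of immune cell signalling, had 8.17, 10.0 and 12.0 CPM (lowest, median and highest) in Control and 5.93, 7.13 and 8.75 CPM in ValR, with 5 of 6 ValR libraries below every Control library (log2 fold change -0.46 ± 0.14). Frat1, which binds GSK3 in Wnt signalling, had 15.2, 17.5 and 19.0 CPM in Control and 12.7, 14.1 and 15.2 CPM in ValR (-0.28 ± 0.08). Here too the ranges met at their edges. Htra1, a secreted serine protease, was at -0.26, the Axin-binding Zbed3 at -0.34, the peroxisomal import factor Pex6 at -0.16, and Tlnrd1 and Smim10l1 at -0.33 and -0.17. Gm28438, the first of these 10 by p, is a pseudogene on chromosome 1 (chr1:24612775-24613119), and 99% of its 31-base words also occur in mt-Nd3, so its reads cannot be told apart from those of the mitochondrial gene (-0.36 ± 0.10). Ndufb3, a subunit of respiratory complex I, differed by -0.15, and 13.5% of its 31-base words occur in other genes.

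**Figure D2:**
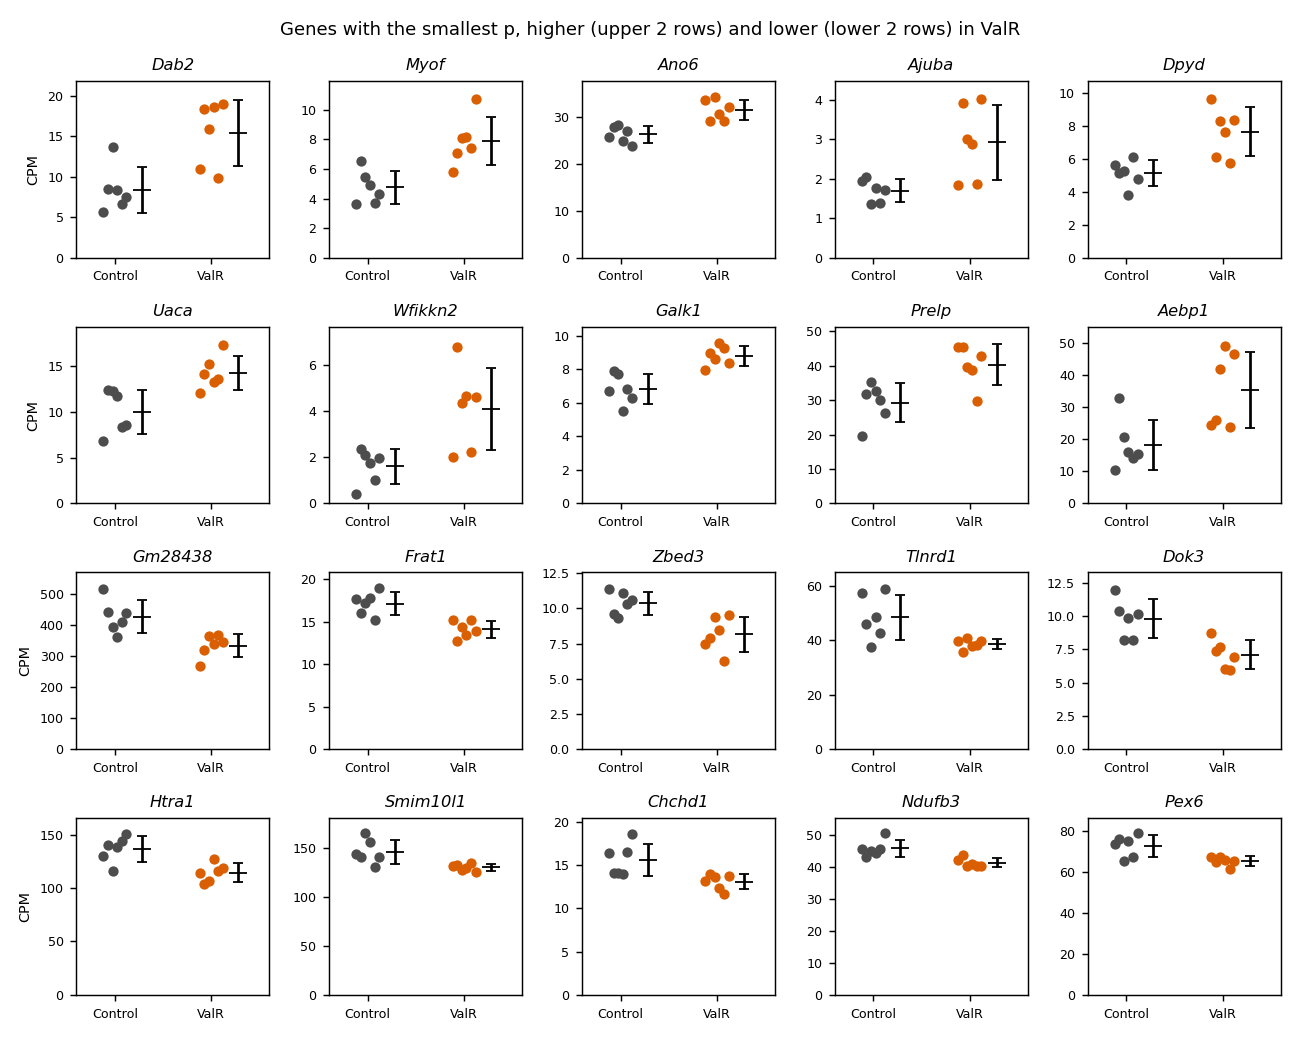
TMM-normalised CPM of the 10 genes with the smallest p among those higher (upper 2 rows) and the 10 among those lower (lower 2 rows) in ValR, with a mean level of at least 1 on the log2 CPM scale. Points are libraries, Control in grey and ValR in orange, and bars give the mean and SD of 6; in Ano6, Galk1 and Chchd1 the groups do not overlap, and in the other 17 they do.

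Groups that did not overlap were rare. In 15 of 20344 genes (0.0737%) all 6 ValR libraries lay above all 6 Control libraries, and in 11 (0.0541%) all lay below. Among those with appreciable levels, the phospholipid scramblase Ano6 (chr15:95790843-95974751) had 23.8, 26.4 and 28.3 CPM in Control against 29.2, 31.5 and 34.4 CPM in ValR, a log2 fold change of 0.26 ± 0.07. Galk1, the galactokinase gene (chr11:116008457-116012719), had 5.53, 6.79 and 7.91 CPM in Control against 7.98, 8.79 and 9.56 CPM in ValR (0.36 ± 0.10). In the other direction, Chchd1 (chr14:20703006-20704425), which encodes a protein of the mitochondrial ribosome, had 14.0, 15.2 and 18.6 CPM in Control against 11.7, 13.4 and 14.0 CPM in ValR (-0.25 ± 0.08). In all 3 of these genes the ranges were separated by less than their own spread. Of the 31-base words of Chchd1, 12.1% occur in other genes, most of them in Mtdh. The remaining genes with separated ranges included, above, the axon guidance ligand gene Slit2 (mean 30.6 CPM in Control and 41.1 in ValR) and Pdlim5 (32.5 and 38.7), and, below, the acid-sensing channel gene Asic1 (99.7 and 86.0). These 3 were chosen after their values were seen, and Slit2 and Asic1 had unadjusted edgeR p of 0.0596 and 0.0871.

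Genes that break down valine were closely bounded. In the list of 8 genes of BCAA transamination and the BCKDH complex, 4 were higher and 4 lower, none had an unadjusted p under 0.05, and all 8 intervals lay inside 1.5-fold. Ppm1k, the phosphatase that activates BCKDH, had 57.6, 79.7 and 87.4 CPM in Control and 49.2, 67.2 and 91.6 CPM in ValR, with overlapping ranges and a log2 fold change of -0.20 (95% interval -0.47 to 0.08). The BCKDH subunits Dbt and Bckdha were at 0.11 and 0.09, and the mitochondrial transaminase Bcat2 at -0.05.

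The valine branch itself lay in a narrow range. Of its 11 genes 9 were higher and 2 lower, between -0.02 and 0.07 on the log2 scale, with a median of 0.04 and all 11 intervals inside 1.5-fold. With the choroid plexus score as a covariate 4 of 11 were higher (median -0.03), and with the meningeal score 3 of 11 (median -0.04). Hibch, whose enzyme is particular to valine breakdown, was at 0.07 (95% interval -0.13 to 0.28), Aldh6a1, which makes propionyl-CoA, at 0.06 (-0.10 to 0.22), and the propionyl-CoA carboxylase subunit Pccb at 0.05 (-0.07 to 0.18). The 3 genes of the isoleucine branch and the 6 of the leucine branch were also bounded within 1.5-fold. Among 9 transporters of large neutral amino acids, 7 were higher and 7 were bounded within 1.5-fold, and none had a p under 0.05. Slc3a2, the heavy chain shared by such transporters, was at 0.11 (-0.06 to 0.29) and Slc7a8 at 0.17 (-0.21 to 0.55).

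**Figure D3:**
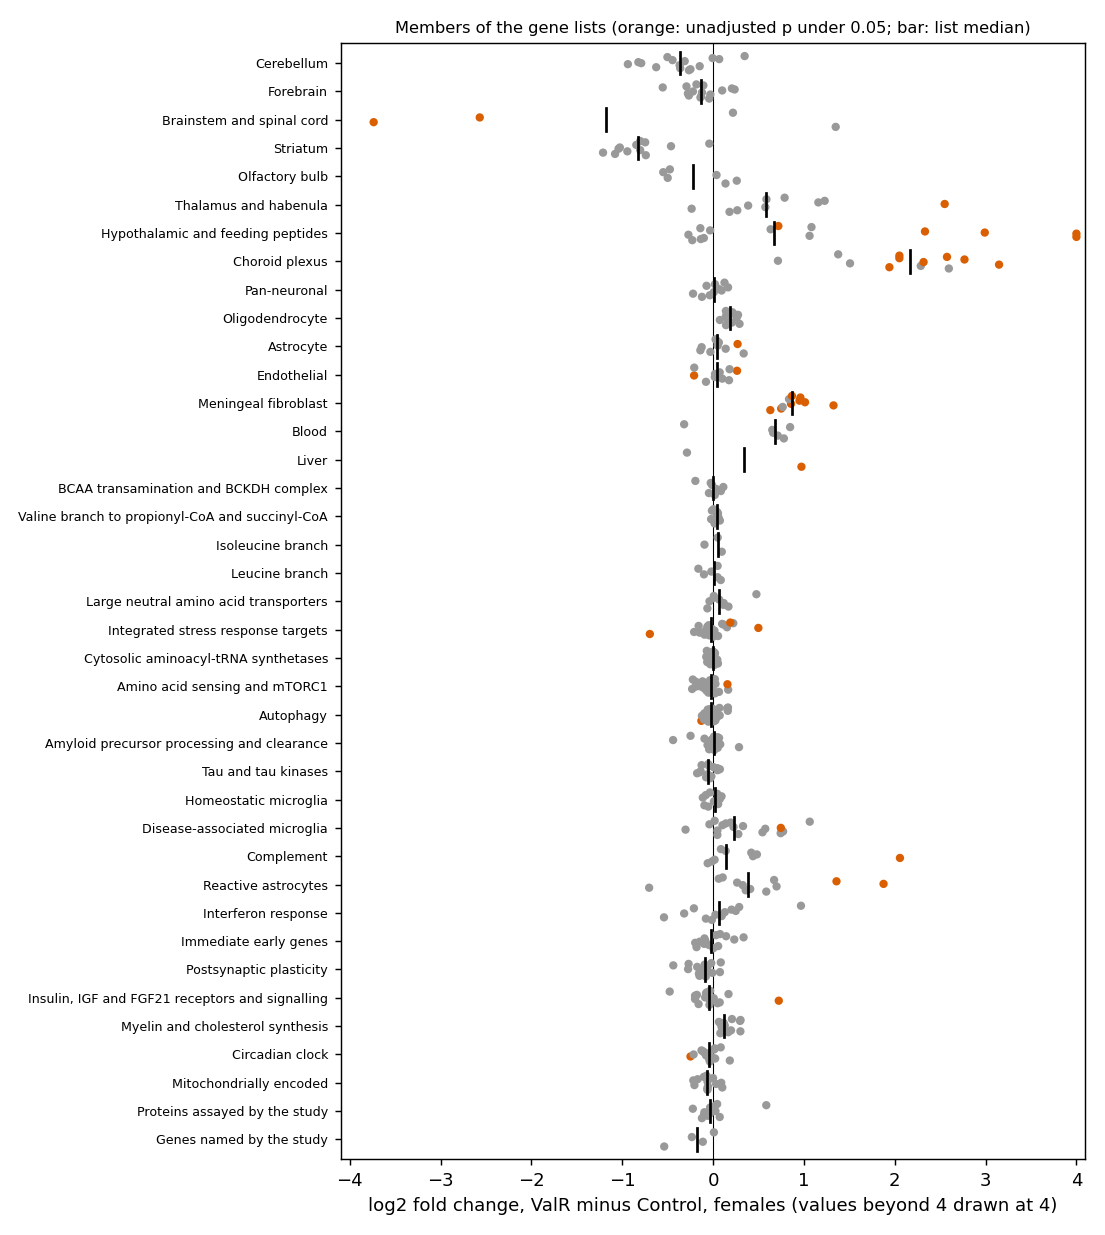
Log2 fold change (ValR minus Control, 6 female libraries each) of every tested member of each gene list, with the list median as a black bar and members with an unadjusted p under 0.05 in orange. Amino acid breakdown, transfer RNA synthetase, mTORC1 and autophagy genes lie close to 0, and choroid plexus and meningeal fibroblast genes lie to the right, with medians of 2.17 and 0.86.

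Targets of the integrated stress response lay on both sides of 0. Of 22 tested members, 9 were higher and 13 lower with a median of -0.03, and 15 were bounded within 1.5-fold. Against 2.85% of all genes higher and 0.973% lower at an unadjusted p under 0.05, the list had 2 higher and 1 lower, none past the adjusted threshold. Slc7a11 (chr3:49892526-50443614), the cystine-glutamate antiporter, had 22.9, 44.0 and 50.9 CPM in Control and 47.3, 56.4 and 69.4 CPM in ValR. In 4 of 6 ValR libraries it exceeded every Control library (log2 fold change 0.50 ± 0.16, interval 0.16 to 0.84; 0.39 with a p of 0.0522 with the meningeal score as a covariate). Eif2ak4, the gene of GCN2 itself, was at 0.19 (0.01 to 0.37). Trib3, a pseudokinase gene driven by ATF4, was lower, with 0.85, 1.10 and 2.40 CPM in Control and 0.476, 0.83 and 0.988 CPM in ValR (-0.70 ± 0.27), and Atf4 itself had an interval of -0.20 to 0.20. Fgf21, the liver hormone gene of protein restriction, had 4 counts in all 12 libraries and was not tested.

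Translation and amino acid sensing showed little spread. All 20 cytosolic aminoacyl-tRNA synthetases were bounded within 1.5-fold, between -0.08 and 0.05. Among 40 genes of amino acid sensing and mTORC1, 32 were lower and 8 higher with a median of -0.03, and 37 were bounded within 1.5-fold. Over all genes 10695 of 20344 were lower, with a median of -0.01. The list score averaged 5.456 ± 0.025 in Control and 5.417 ± 0.021 in ValR (SD, n = 6 each). Nprl3, a subunit of the GATOR1 complex that restrains mTORC1, was the only one of the 40 with a p under 0.05. It was at 0.16 (interval 0.00 to 0.32), with 4 of 6 ValR libraries above every Control library. Of 35 autophagy genes 34 were bounded within 1.5-fold, and only Atg13, a subunit of the ULK1 initiation complex, had a p under 0.05. Its levels were 105, 110 and 113 CPM in Control and 90.8, 102 and 107 CPM in ValR (-0.13 ± 0.05), with 4 of 6 ValR libraries below every Control library.

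The study also followed a set of proteins by immunoblot or staining. Of the 13 genes that encode them none had a p under 0.05, and 11 were bounded within 1.5-fold. Among the autophagy proteins, Atg5 was at -0.12 (-0.28 to 0.04), Atg7 at 0.07, Atg16l1 at -0.06, Becn1 at -0.10, Map1lc3a at -0.03, Map1lc3b at -0.10 and Sqstm1 (p62) at 0.03 (-0.19 to 0.24). The mTORC1 substrate genes Rps6 and Eif4ebp1 were at -0.01 and -0.22. Eif4ebp1 and Gfap, the astrocyte filament gene, were the 2 not bounded so. Gfap had 138, 183 and 365 CPM in Control and 160, 312 and 455 CPM in ValR, with overlapping ranges (0.59, interval -0.09 to 1.26). Aif1 (Iba1), the microglial marker, was at 0.04 (-0.42 to 0.51).

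Neither amyloid nor tau genes passed the test. App was at 0.01 (-0.19 to 0.22) and Mapt at -0.03 (-0.16 to 0.10); reads of the human transgenes may align to the mouse App and Mapt genes, and these sources cannot be told apart in these counts. Of 21 genes of amyloid precursor processing and clearance 17 were bounded within 1.5-fold and none had a p under 0.05. The secretase gene Bace2 was at 0.29 and the sorting receptor gene Sorl1 at -0.25. Of 15 genes of tau and its kinases 11 were lower, 13 were bounded within 1.5-fold and none had a p under 0.05, with Mark2 at -0.14 (-0.42 to 0.15). With the meningeal score as a covariate all 15 were higher (median 0.09). That covariate also moved the region markers: cerebellar markers were higher in 0 of 15 (median -2.70) and forebrain markers in 14 of 15 (median 0.51). Without it their medians were -0.36 and -0.13.

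Microglial genes were described by state, and the states were not tested against each other. The 12 homeostatic markers had a median of 0.02 with 7 higher and none with a p under 0.05, and Tmem119 was at -0.10 (-0.61 to 0.42). Of 17 genes of the disease-associated state 15 were higher, with a median of 0.22, and 1 of them had a p under 0.05, where 2.85% of all genes were higher at that level. This was Gpnmb, a transmembrane glycoprotein gene, with 2.25, 3.15 and 3.99 CPM in Control and 2.61, 4.76 and 9.13 CPM in ValR, higher than every Control library in 5 of 6 (0.75 ± 0.26; 0.52 with a p of 0.059 when the choroid plexus score was a covariate). Tyrobp and Lgals3 were at 0.28 and 1.06, with intervals that held 0. With the choroid plexus score as a covariate 9 of the 17 were higher (median 0.01), and with the meningeal score 14 (median 0.19). Without the 4 cerebellum-rich libraries 9 were higher (median 0.05). In these settings, in that order, 10, 12 and 0 of the 12 homeostatic genes were higher (medians 0.08, 0.29 and -0.11).

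Of 12 reactive astrocyte genes 11 were higher, with a median of 0.38, and 2 had a p under 0.05, where 2.85% of all genes were higher at that level: Steap4, a metalloreductase gene (0.0571, 0.238 and 0.60 CPM in Control; 0.407, 0.845 and 1.73 CPM in ValR), and Timp1, a metalloproteinase inhibitor gene (1.36 ± 0.49). Both were under 2 CPM in every library. With the cerebellum minus forebrain score as a covariate 5 of the 12 genes had a p under 0.05, all higher (median 0.42). In that fit 4.12% of all genes were higher at that level. C3, the central complement component, had 0.628, 1.76 and 2.79 CPM in Control and 0.871, 6.85 and 15.2 CPM in ValR, above every Control library in 4 of 6 (2.06 ± 0.75), and the other tested members of the list of 9 complement genes had no p under 0.05. In that list 7 were higher (median 0.14), against 4 of 9 (median -0.05) without the 4 cerebellum-rich libraries, while the reactive astrocyte list then had 9 of 12 higher (median 0.23). With the meningeal fibroblast score as a covariate, an alternative chosen after seeing the data, C3 was at 1.49 with a p of 0.0925, Steap4 at 1.71 with a p of 0.00578 and Timp1 at 0.68 with a p of 0.187.

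Neuronal activity and interferon genes gave no p under 0.05. The 14 immediate early genes had 7 members higher and 7 lower, but 12 higher with the choroid plexus score as a covariate, 11 with the meningeal score and 5 without the cerebellum-rich libraries, with Nr4a3 at 0.34 (-0.38 to 1.05). Of 20 postsynaptic plasticity genes 18 were lower with a median of -0.09, and Shank3, a scaffold of the excitatory synapse, was at -0.18 (-0.47 to 0.12). With the meningeal score as a covariate 18 of these 20 were higher (median 0.21), and so were 14 of 15 forebrain markers in that fit. Of 12 interferon genes 7 were higher, and 4 without the cerebellum-rich libraries, with Isg15 at -0.54 (-1.15 to 0.07). Of 18 insulin and growth factor genes 13 were lower and 5 higher. Igfbp2, which binds insulin-like growth factors and was the only one with a p under 0.05, was among the latter at 0.72 ± 0.26 (0.39 with a p of 0.101 with the choroid plexus score as a covariate, and 0.45 with a p of 0.139 with the meningeal score), and Sgk1 was at -0.48. In the circadian list Arntl (BMAL1) had 31.7, 39.7 and 46.3 CPM in Control and 27.3, 32.9 and 38.6 CPM in ValR (-0.25 ± 0.09), while the other 14 members had no p under 0.05. The 13 mitochondrially encoded genes were all bounded within 1.5-fold, with mt-Co2 at -0.22.

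The lists with the most members past an unadjusted p of 0.05 were those of brain barriers. All 12 choroid plexus markers were higher in ValR with a median of 2.17, and 7 had a p under 0.05 against the 2.85% of all genes higher at that level. Ttr, the transthyretin gene made in bulk by this tissue, had 0, 1.82 and 655 CPM in Control and 0.773, 219 and 2399 CPM in ValR. Levels followed single libraries: the choroid plexus score was 5.02, 3.10 and 4.64 in ValR 32, 33 and 36 and 3.14 in Control 28, and between -0.68 and 0.77 in the other 8. Sostdc1, Kcnj13, Kcne2 and F5, further markers of this epithelium, had log2 fold changes of 2.77, 2.05, 3.15 and 2.32. Without the 4 cerebellum-rich libraries, an alternative chosen after seeing the data, all 12 were still higher (median 1.82) and 0 had a p under 0.05.

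Meningeal fibroblast genes were higher in a more even way. All 10 markers were higher in ValR with a median of 0.86, and 8 had a p under 0.05, against 2.85% of all genes. Igf2, a growth factor gene of the meninges and choroid plexus, had 26.0, 55.0 and 77.3 CPM in Control and 51.9, 104 and 162 CPM in ValR, above every Control library in 4 of 6 (0.96 ± 0.30). Slc13a4, a sulfate transporter gene, had 5.08, 11.9 and 23.4 CPM in Control and 14.2, 27.5 and 33.6 CPM in ValR (0.95 ± 0.32), and the proteoglycan genes Ogn and Dcn were at 1.01 and 1.33. The list score ranged from 1.90 to 3.61 in Control and from 3.14 to 4.49 in ValR, so the groups overlapped. With the choroid plexus score as a covariate 8 of 10 meningeal genes had a p under 0.05 (median 0.75; 382 of 20344 genes were higher at that level), and without the 4 cerebellum-rich libraries 10 of 10 were higher, 1 of them with a p under 0.05 (median 0.76).

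The values of several leading genes were nearer to 0 once these markers entered the fit. With the meningeal score as a covariate, the log2 fold change of Aebp1 went from 0.95 to 0.28, that of Uaca from 0.51 to 0.26, that of Myof from 0.73 to 0.43 and that of Dab2 from 0.88 to 0.55. Ajuba (0.73), Dpyd (0.54), Galk1 (0.38), Frat1 (-0.31) and Chchd1 (-0.26) stayed within 0.05 of their values without it. How much meningeal tissue was attached to each hemisphere was not recorded in the labels, and a diet effect on these cells and unequal dissection cannot be told apart.

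Other regions stood out in 1 or 2 libraries. Of 14 tested hypothalamic and feeding peptide genes 5 had a p under 0.05, all higher in ValR, where 2.85% of all genes were higher at that level. With the choroid plexus score as a covariate 12 of the 14 were higher (median 0.47), 0 of them with a p under 0.05. Pmch, the melanin-concentrating hormone precursor gene, reached 106 CPM in ValR 32 and had a ValR median of 0.149 CPM against a Control median of 0.137 CPM. Oxt, the oxytocin gene, reached 37.3 CPM in ValR 33 with a ValR median of 1.45 CPM. Lepr, the leptin receptor gene, which is also expressed in choroid plexus and meninges, was more even (0.971, 2.67 and 4.30 CPM in Control; 2.44, 4.40 and 5.73 CPM in ValR; 0.72 ± 0.30). In the brainstem list Tph2, the serotonin synthesis gene, was at -3.74, which rested on Control 27 with 35.9 CPM; the value without that library was 0.26. Thalamus and habenula genes were higher in 9 of 10 (median 0.58; 6 of 10, median 0.05, with the choroid plexus score as a covariate). The 1 with a p under 0.05, the habenular receptor gene Gpr151 (2.55), reached 14.5 CPM in ValR 32, and its value without that library was 0.33. Striatal genes were lower in 12 of 12 (median -0.82) with no p under 0.05, and with the meningeal score as a covariate all 12 were higher (median 0.46). In that fit forebrain markers were higher in 14 of 15 and cerebellar markers in 0 of 15. Oligodendrocyte genes were higher in 12 of 12 (median 0.19), also with no p under 0.05, and with the choroid plexus score as a covariate 3 of 12 were higher (median -0.14). Endothelial genes were bounded within 1.5-fold in 10 of 10, and 9 of 10 pan-neuronal genes were bounded so too. Of the other markers with a p under 0.05, Sox9 (astrocyte) was at 0.27, Cdh5 and Ly6c1 (endothelial) at 0.26 and -0.21, and Apoa2 (liver) at 0.97. Fev (brainstem, -2.57) rested on Control 27 with 2.12 CPM, where the other 11 libraries had at most 0.30 CPM (-0.69 without that library), and Gal (hypothalamic, 2.99) on ValR 32 and 33 with 4.37 and 3.20 CPM, where the other 10 had at most 0.614 CPM. The Hox genes Hoxb3, Hoxa5 and Hoxc4, which the study named, did not pass the filter, since no diet group had a count of them in each of its libraries; 81 of 109, 81 of 101 and 68 of 88 counts of the 12 libraries lay in a single library. Lhx1 and Crym, named with them, had values of -0.54 and 0.01 with intervals that reached beyond 2-fold in both directions.

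The cerebellum minus forebrain score was then added to the fit as a covariate. The median SE fell from 0.204 to 0.152, and still 0 genes (0%) had an adjusted p under 0.05 by edgeR (quasi-likelihood test, Benjamini-Hochberg adjusted), with a smallest adjusted p of 0.636. voom and DESeq2 called 0 genes as well. At an unadjusted p under 0.05 there were 1285 genes, 838 higher (4.12%) and 447 lower (2.2%). Leaving out 1 library gave 942 to 2240, the latter without Control 27. At that level 9 of 10 meningeal fibroblast and 5 of 12 choroid plexus genes were higher. So were 5 of 14 hypothalamic and feeding peptide genes and 5 of 12 reactive astrocyte genes, and none of these lists had a lower one. Where the mean log2 CPM reached 1, the genes higher in ValR with the smallest p were Dab2 (0.87), Fbln5, an elastic fibre gene, Myof (0.72), Mxra8, an adhesion gene of matrix-forming cells, and Zfp36l1, which encodes a protein that promotes messenger RNA decay. Fbln5 had 4.74, 7.10 and 10.3 CPM in Control and 7.96, 13.2 and 18.2 CPM in ValR, above every Control library in 5 of 6, and its log2 fold change was 0.77 (0.41 to 1.13) with the covariate and 0.81 (0.22 to 1.39) without. Mxra8 was at 0.66 with it (0.34 to 0.97). Zfp36l1 was at 0.34, and 60% of its 31-base words occur in other genes, most of them in Gm26669. Sqle, the squalene epoxidase gene of cholesterol synthesis, had an unadjusted p of 0.000698 with the covariate (0.32) and 0.0532 without (0.30).

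The fit of the 4 diets gave a direct test of ValR against the other restrictions. Against IleR, 0 genes (0%) were called by edgeR (quasi-likelihood test, Benjamini-Hochberg adjusted) (847 at an unadjusted p under 0.05), 0 by voom and 18 by DESeq2. Against LeuR, edgeR and voom called 0 genes (0%; 1014 at an unadjusted p under 0.05 by edgeR), and DESeq2 called 2, Igflr1 and Gm15612. Blood genes were higher in ValR than in IleR in 6 of 6, 5 of them with an unadjusted p under 0.05 (2.62% of all genes were higher at that level). Hbb-bs, a haemoglobin gene, had 151, 329 and 811 CPM in ValR and 74.3, 153 and 190 CPM in IleR (1.40, interval 0.44 to 2.37). Meningeal genes were higher in 10 of 10 against IleR, 5 at that level. Against LeuR they were also higher in 10 of 10 (median 0.16), 0 at that level. Blood genes were higher than in LeuR in 5 of 6, 0 at that level. Choroid plexus genes were higher in 12 of 12 against IleR (median 1.10) and in 4 of 12 against LeuR (median -0.04), 0 at that level in either.

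Of the lists compared between ValR and LeuR, that of myelin and cholesterol synthesis had the most members with an unadjusted p under 0.05. Of 16 genes of myelin and cholesterol synthesis 14 were higher in ValR than in LeuR, 9 with an unadjusted p under 0.05 (2.23% of all genes were higher at that level) and none lower at that level, and the median was 0.27. The 9 were sterol genes: the myelin lipid genes Ugt8a and Fa2h were the 2 lower ones (-0.17 and -0.14), the myelin protein gene Pmp22 was at 0.08, and oligodendrocyte markers were lower in 9 of 12 (median -0.10). Region markers differed in this contrast too, with cerebellar markers lower in ValR in 15 of 15 (median -0.61) and forebrain markers higher in 14 of 15 (median 0.31), none with a p under 0.05, and LeuR 45 had a cerebellum minus forebrain score of 7.17 and LeuR 48 of 3.84, with the other 4 LeuR libraries below 0. With that score as a covariate 12 of the 16 genes had a p under 0.05, all higher (median 0.25). In that fit 911 of 20344 genes were higher at that level. The part of the region markers in the result was otherwise not tested. Against Control all 16 were higher, with a median of 0.12 and none under 0.05; these 2 contrasts share the ValR libraries. Sqle, the squalene epoxidase gene, had 57.4, 68.0 and 84.5 CPM in ValR and 33.2, 51.8 and 61.2 CPM in LeuR (0.49 ± 0.15), and the genes of later steps, Cyp51 and Dhcr7, were at 0.25 and 0.27. In each of these genes the groups overlapped.

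A single gene passed the test against LeuR once the cerebellum minus forebrain score was a covariate. Acat2 (chr17:12942890-12960747), whose enzyme joins acetyl-CoA units at the entry to cholesterol synthesis, had 34.3, 41.5 and 46.2 CPM in ValR and 24.2, 32.8 and 36.8 CPM in LeuR. Its log2 fold change with the covariate was 0.35 (0.25 to 0.45), with an adjusted p of 0.00513 by edgeR's quasi-likelihood test, and 0.38 with an adjusted p of 0.807 without it. It was not a member of the list, was named after its values were seen, and 43.7% of its 31-base words also occur in Acat3, so its reads are uncertain where the authors' counting could split them.

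The integrated stress response list was mostly lower in ValR than in either other restriction. Against IleR 15 of 22 genes were lower, and 2 had an unadjusted p under 0.05 (1.55% of all genes were lower at that level), Atf5 at -0.47 and the asparagine synthetase gene Asns at -0.37; of the 20 aminoacyl-tRNA synthetases 17 were lower, 3 at that level. Against LeuR 18 of 22 were lower in ValR, 5 with an unadjusted p under 0.05 (2.76% of all genes were lower at that level) and 1, Cebpg, higher. Trib3 had 1.19, 1.69 and 2.16 CPM in LeuR, above the highest ValR value of 0.988 CPM, so these groups did not overlap (-1.04 ± 0.27). Atf5, a transcription factor gene, had 34.3, 40.7 and 43.9 CPM in LeuR against 25.0, 29.4 and 31.4 CPM in ValR, again without overlap (-0.46 ± 0.13). Chac1, a glutathione-degrading enzyme gene, Ddit3 (CHOP) and the folate enzyme gene Mthfd2 were at -0.69, -0.42 and -0.42. With the cerebellum minus forebrain score as a covariate 7 were lower and 1 higher with a p under 0.05 (median -0.15). In that fit 761 of 20344 genes were lower and 911 higher at that level. No member passed the adjusted threshold, and against Control the same 5 genes were at -0.70, -0.04, -0.15, -0.10 and -0.02.

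**Figure D4:**
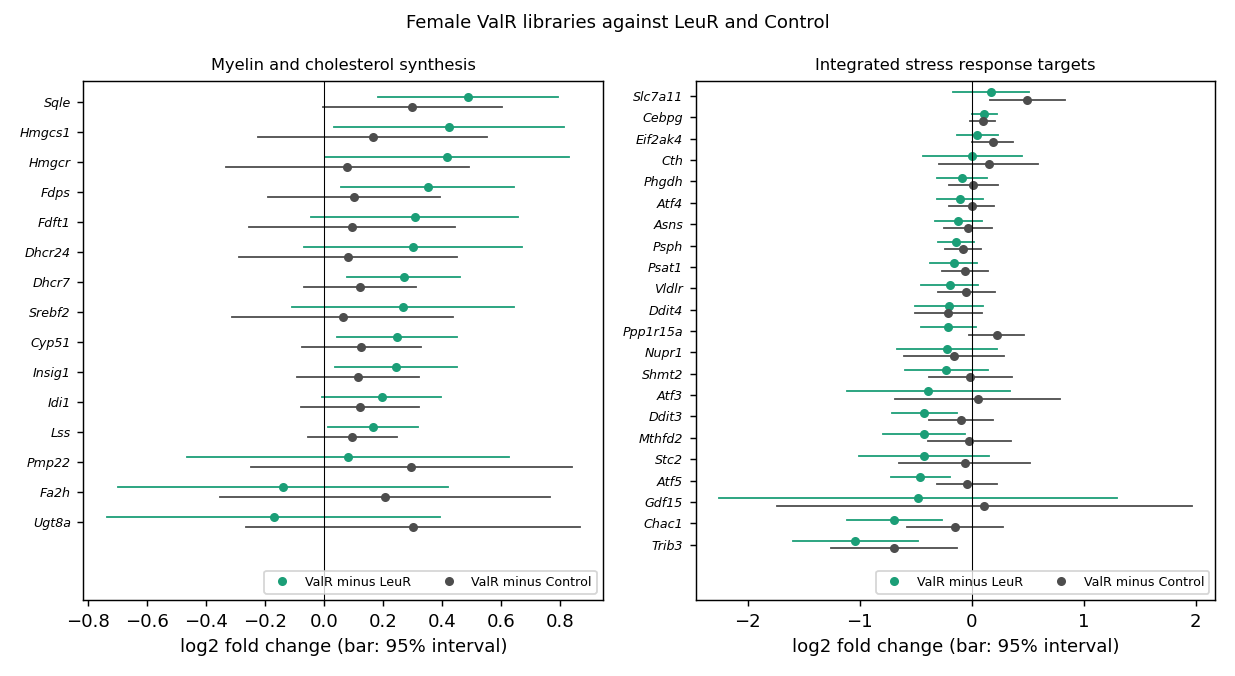
Log2 fold changes with 95% intervals of ValR minus LeuR (green) and ValR minus Control (grey) in females, for genes of myelin and cholesterol synthesis (left) and the integrated stress response targets (right). Both contrasts use the same ValR libraries; all but 2 of the genes drawn on the left are above 0 against LeuR, and 18 of 22 on the right are below 0 against LeuR.

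Whether the ValR effect differed between the sexes was tested as an interaction in a fit of all 37 libraries. Of 22465 genes tested, 955 (4.25%) had an adjusted p under 0.05 by edgeR (quasi-likelihood test, Benjamini-Hochberg adjusted), 803 with a higher and 152 with a lower ValR minus Control difference in females; voom called 29 and DESeq2 2368. Among the 5 genes with the smallest p were Tbr1, Emx1 and Otx1, which encode transcription factors of the cerebral cortex. Tbr1 had 16.3, 127 and 186 CPM in female Control and 35.5, 94.3 and 215 CPM in female ValR, which overlapped throughout, and 62.5, 161 and 167 CPM in male Control against 0.354, 0.58 and 0.952 CPM in male ValR (n = 4 males a group). Its interaction was 7.64 (adjusted p = 0.00558). Emx1 was at 6.67 and Otx1 at 6.39.

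Tbr1 and Emx1 belong to the forebrain list that enters the tissue score, so that they follow it is fixed by construction; Otx1 does not belong to it. The score lay between -5.09 and -2.18 in male Control and between 4.98 and 7.01 in male ValR, which did not overlap, while both female groups spanned negative and positive values. With the score as a covariate 0 genes were called for the interaction by edgeR (1572 at an unadjusted p under 0.05, smallest adjusted p 0.331). In males the diet and the tissue makeup of the libraries cannot be told apart. The count also depended on single libraries, from 191 without male ValR 10 to 2463 without female ValR 36.

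**Figure D5:**
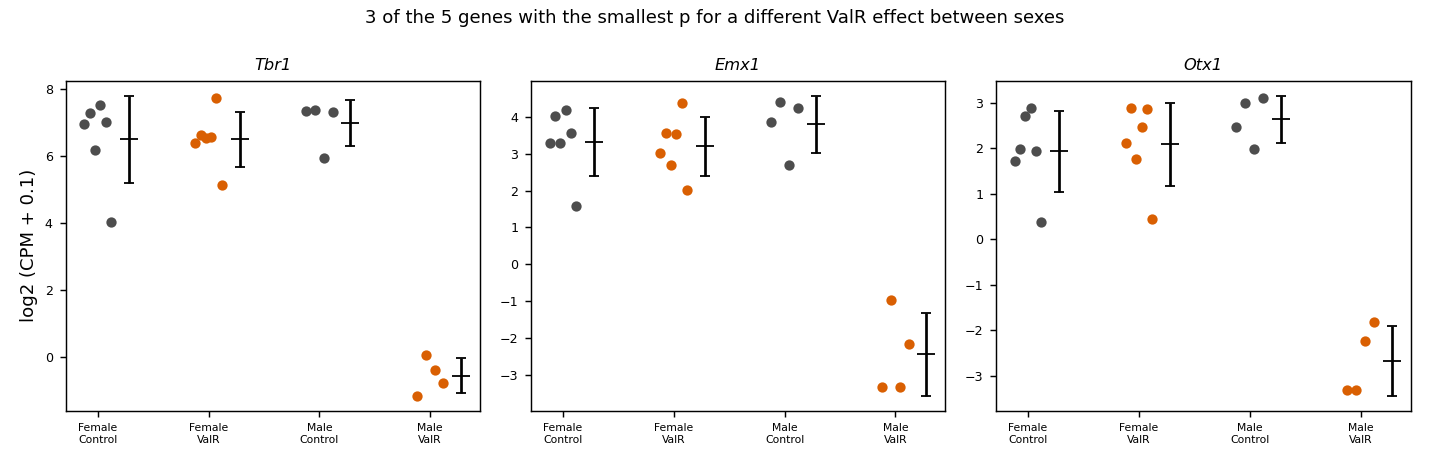
Expression on the log2 (CPM + 0.1) scale, normalised over 37 libraries, of 3 of the 5 genes with the smallest p for a different ValR effect between the sexes, in 6 female Control, 6 female ValR, 4 male Control and 4 male ValR libraries (points; bars are the mean and SD). The female groups overlap in all 3 genes, and the male ValR libraries lie below the other 3 groups.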

How the data were processed

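Gene-level RNA-seq of brain was analysed in 12 female 3xTg libraries (6 ValR, 6 Control), fitted with 5 IleR and 6 LeuR female libraries, and with 14 male libraries for the comparison of sexes. The methods describe total RNA of the left hemisphere, and the labels describe both total RNA and polyA-selected stranded libraries; whether reads were counted by strand is not given in the sources used here, nor is the aligner. The authors aligned reads to GRCm38.p5 and deposited expected counts per Ensembl gene; up to 4.34% of a library's values in the 12 were not whole, and counts were rounded. Per the labels, R 3.4.3, edgeR and limma were used by the submitters. Gene symbols and coordinates came from GENCODE M21 (52135 of 55416 identifiers matched).

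A gene was kept if some diet group had 1 count or more of it in each of its libraries. Counts were TMM-normalised and tested by edgeR's quasi-likelihood test (edgeR 4.0.16, R 4.3.3) with the 4 female diets in 1 fit, without and with the cerebellum minus forebrain score (prior count 2) as covariate, at a Benjamini-Hochberg adjusted p of 0.05. The design had assumed counts. Alternatives were limma voom (limma 3.58.1), DESeq2 (1.42.0), RLE scaling, other filters, choroid plexus and meningeal scores, subsets of libraries and leaving out each library. The meningeal covariate and the omission of the 4 cerebellum-rich libraries were chosen after seeing the data. The depth was 12865421 to 20669236 counts in the 12 libraries. All 30 pairs within a diet differed beyond counting noise (chi-square per degree of freedom at least 10.4). Shared 31-base words were counted between annotated transcripts. The scripts were tested on simulated data. Some genes that the naming rule covers are not reported here; they remain in the counts over lists and over all genes.

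Named genes were the members of the study's own lists, up to 4 members with the smallest p of every other list, the 10 genes with the smallest p higher and the 10 lower whose mean log2 CPM reached 1, the same 5 and 5 with the covariate, and the 5 with the smallest interaction p. The comparison, lists and rules were chosen with earlier results of these data known.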

Additional observations from a re-analysis of the deposited data

Results flagged for a closer look

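Single libraries stood apart from the other 5 of their diet, by a gap test at the 95% level for 6 values (0.625), in 14 of 212 groups of values (6.6%); chance gives about 1 in 20. Of these, 7 were in Control 30, the library with the highest cerebellum minus forebrain score: Gpr151 at 0, Emx1 at 2.92, Ppm1k at 57.6 and Sqle at 39.7 CPM were low, and Ndufb3 at 50.5, Lgals3 at 1.57 and Sox9 at 35.5 CPM were high. In Control 28, Kcne2 at 2.61 and F5 at 7.29 CPM were high, where the choroid plexus score was also high, and Timp1 was at 0 CPM. Tph2 was at 35.9 CPM in Control 27. In ValR, Pccb was low in library 35 (54.8 CPM), Trib3 in library 31 (0.476 CPM) and Tmem119 in library 36 (10.8 CPM).

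Between sexes the ValR effect differed in 955 genes by the edgeR interaction test. Among the genes named here the female minus male difference was 7.64 for Tbr1, 6.67 for Emx1, 6.54 for Crym, 6.39 for Otx1, 2.61 for Nr4a3, 1.34 for Slc7a11, -0.52 for Frat1 and -6.73 for Tph2 on the log2 scale. For Slc7a11 the female value was 0.50 and the male value -0.84 (adjusted p 0.0035 in males by edgeR). The Tph2 difference includes a female value of -3.74 that rests on Control 27 and was 0.26 without it. With the cerebellum minus forebrain score as covariate 0 genes were called.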

How the results depend on the processing

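ValR against Control kept 0 calls by edgeR under voom, DESeq2, RLE scaling, both other filters, the 12 libraries alone, the meningeal covariate, without the 4 cerebellum-rich libraries and without each library (0 to 0 calls, 618 to 1322 genes at an unadjusted p under 0.05). With the choroid plexus score, alone or beside the cerebellum minus forebrain score, it had 1 call, Gm42047, lower in ValR. With the cerebellum minus forebrain score alone every alternative run gave 0 calls, and leaving out each library 0 to 0. Against IleR DESeq2 called 18 genes, the joint covariates 1, and leaving out 1 library gave 0 to 7, with 4 without IleR 38, 4 without IleR 41 and 7 without IleR 42. Against LeuR DESeq2 called 2, the cerebellum minus forebrain score 1 (Acat2), the joint covariates 3 (Acat2, Sqle and Trim23), and leaving out 1 library 0 to 0.

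The 955 interaction calls became 29 under voom, 2368 under DESeq2 (1558 higher and 810 lower), 587 without a filter, 1675 with ValR and Control alone and 0 with the cerebellum minus forebrain score; leaving out 1 library gave 191 to 2463. Of those, the counts without female Control 27, 29 and 30 were 590, 601 and 391, without female ValR 32, 33, 34, 35 and 36 they were 582, 520, 450, 382 and 2463, without male Control 1, 3, 4 and 5 they were 346, 255, 1516 and 508, and without male ValR 7, 10 and 12 they were 334, 191 and 195. The cause was not tested.

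Across 20 settings the 107 named genes had 0 calls and 57 changes of sign in 23 genes. Those that moved by over 1 SE were Lhx1 at 1.40 under voom, Tph2 at 0.26 without Control 27 (-3.99 to 0.26 without each library), F5 at -0.16 with the choroid plexus score, and, with the meningeal score, Tbr1 at 0.51, Hibch at -0.073, Acadsb at -0.0052, Mark2 at 0.10, Tmem119 at 0.29, Shank3 at 0.081, Ogn at -0.016 and Ddit3 at 0.053. The difference in tissue score ranged from 0.17 to 0.40 over 4 other definitions and from -0.63 to 1.57 without each library. No paired analysis was possible because the labels name no pairs of libraries across the 2 diets. The library numbers, 25 to 30 and 31 to 36, are serial and carry no pairing. Of genes under 1 CPM only 16% had an interval within 2-fold.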
